A study of Mus musculus with 4 samples.

Results

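Cd38, Ly6a, Cd83 and Cd24a are 4 mouse genes whose products sit on the surface of lymphocytes. Their members here are all probe sets that carry one of these symbols in either of the authors' tables of changed probe sets. There are 6, of 660 probe sets with a symbol (507 genes) and 45037 probe sets analysed on the arrays. Cd38, Ly6a and Cd83 have 1 probe set each and Cd24a has 3. The T cells were taken from the spleen and the lymph nodes, the mice were 6 to 8 weeks old, and the study asked which genes depend on Foxo1, a forkhead transcription factor. The groups were Foxo1-deficient CD4, wild-type CD4, Foxo1-deficient CD8 and wild-type CD8 T cells, with 1 array each. No measurement was repeated, so the spread between mice or preparations is unknown for every difference given. The strain, the Cre driver or other means of deletion, the number of mice pooled and the purity of the cells are not given in the sources used here.

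Surface proteins of this kind are used to tell resting from stimulated lymphocytes. Cd38 encodes an enzyme that faces the outside of the cell and turns NAD into cyclic ADP-ribose and ADP-ribose, messengers of calcium signalling. Ly6a encodes Sca-1, a lipid-anchored protein known as a marker of mouse blood stem cells, which T cells raise on activation and in response to interferons. How strongly resting T cells carry Sca-1 depends on the Ly6 haplotype of the mouse strain. Cd83 encodes an immunoglobulin-type membrane protein of mature dendritic cells and B cells that appears on T cells after activation, and Cd24a encodes the heat-stable antigen, a small lipid-anchored glycoprotein that is high on immature thymocytes and is lost as T cells mature. B cells carry several of these proteins too.

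Intensities are the linear values of the authors' value table. The median of all of them, 74.9, served as a floor. A value below it was treated as unmeasured, and a difference with 1 value below it is a lower bound, written "at least". Array medians lay between 69.0 and 77.6, and log2 intensities of the arrays correlated across probe sets at r = 0.93 to 0.94. The targeted gene was lower in the Foxo1-deficient array of each cell type at all 4 of its probe sets. At the 3 probe sets above the floor throughout, 4.91% to 13.5% of the wild-type signal was left in CD4 and 17.4% to 26.6% in CD8, and 1459170_at was below the floor in both deficient arrays. None of the T cell, CD4 or CD8 markers looked for (Cd3e, Cd4 and Cd8a among them) carries a symbol in these tables, so the labelled cell types could not be checked against their own markers.

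For the brightest probe set of each gene, the Foxo1-deficient array was above the wild-type array in both cell types, for 4 of 4 genes. In CD4 T cells 1 of the 4, Cd83, was at least 2-fold higher, where 1.5% of all 24070 probe sets compared were, and none was at least 2-fold lower, where 1.26% were. In CD8 T cells 2 of the 4, Cd38 and Ly6a, were at least 2-fold higher, against 1.47% of 23803 probe sets, and none was at least 2-fold lower, against 2.04%. The median log2 difference of the 4 genes was 0.79 in CD4 and 1.33 in CD8, beside medians of 0.017 and -0.0031 over all probe sets compared. Among all named genes compared, the medians were 0.32 in CD4 and 0.16 in CD8. Of those named genes, 27.5% were at least 2-fold higher and 21.8% lower in CD4, and 28.5% and 31.4% in CD8. The authors put the 4 genes in their tables for a change of at least 2-fold, Cd83 and Cd24a in both cell types and Cd38 and Ly6a in CD8 alone. The size of their change in the listed cell type was therefore set by the choice. Those tables hold changes in both directions, with 209 of 395 probe sets higher in CD4 and 262 of 496 in CD8. The 4 genes were chosen with earlier results of these data known, so their shared direction and the counts support nothing. Neither Cd38 nor Ly6a was listed for CD4.

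**Figure D1:**
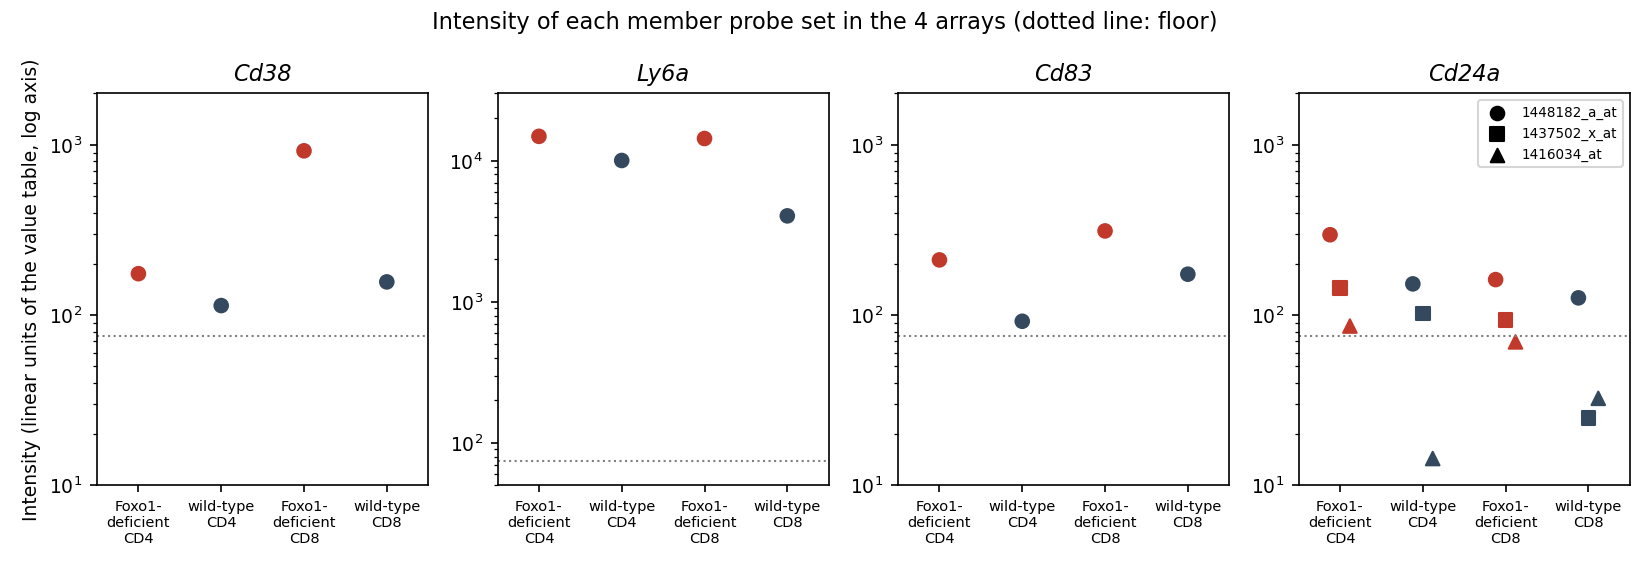
Intensity (log axis, linear units of the value table) of each probe set of Cd38, Ly6a, Cd83 and Cd24a in the Foxo1-deficient (red) and wild-type (dark) arrays of CD4 and CD8 T cells; 1 point is 1 array, and the dotted line is the floor of 74.9. Cd38 stands at 921 in the Foxo1-deficient CD8 array and at 114 to 175 in the other arrays, while Ly6a is lowest in the wild-type CD8 array, at 4070.

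Cd38, the NAD-consuming ectoenzyme, had an intensity of 921 in Foxo1-deficient CD8 T cells, against 157 in wild-type CD8 T cells. In CD4 T cells it had 175 in the Foxo1-deficient array and 114 in the wild-type array. A single array, Foxo1-deficient CD8, thus stood apart, and the other 3 lay within 1.54-fold of each other. The genotype difference was 5.88-fold in CD8 (log2 2.56) and 1.54-fold in CD4 (log2 0.62). The CD8 difference was one of the larger ones on the array, since 26 of the 23803 probe sets compared, Cd38 included, were at least as far higher. Of 4402 probe sets whose mean over both CD8 arrays was within 1.5-fold of that of Cd38, 1.34% were at least 2-fold higher. In CD4 the Cd38 difference was less unusual, with 5.7% of all probe sets at least as far higher. The fold in CD8 was 3.82 times the fold in CD4, and with 1 array per group this difference between the cell types has no test. Cd38 was listed for CD8 alone, so a larger fold in CD8 was in part set by the choice.

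Ly6a, which encodes Sca-1, had an intensity of 14386 in Foxo1-deficient CD8 T cells, against 4070 in wild-type CD8 T cells. In CD4 T cells it had 14905 in the Foxo1-deficient array and 10051 in the wild-type array. Here the array that stood apart was the wild-type CD8 one, 2.47-fold below the next lowest. The genotype difference was 3.53-fold in CD8 (log2 1.82), with 52 of 23803 probe sets at least as far higher. In CD4 it was 1.48-fold (log2 0.57), with 7.04% of the probe sets at least as far higher. Among probe sets with a mean within 1.5-fold of that of Ly6a, 0.798% of 1002 were at least 2-fold higher in CD8 and 0.166% of 602 in CD4. The fold in CD8 was 2.38 times the fold in CD4, also without a test. Ly6a too was listed for CD8 alone, so a larger fold there was in part set by the choice.

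Ly6c1, a neighbour of Ly6a in the gene order of the mouse assembly GRCm38.p6 and like it a lipid-anchored Ly6 protein, was the only gene with a symbol among 13 other Ly6 family genes looked for. Its intensity was 17553 in Foxo1-deficient CD8 T cells, against 9513 in wild-type CD8 T cells, a log2 difference of 0.88. In CD4 T cells it was 6322 in the Foxo1-deficient array and 7345 in the wild-type array, a log2 difference of -0.22. Ly6a was thus above wild-type in both cell types, and Ly6c1 was above it in CD8 alone. In CD4 the difference of Ly6c1 was smaller than 0.39 log2 units, the pooled SD between probe sets of the same named gene. Ly6 genes are alike in sequence, so a probe set of one may also read another.

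Cd83, the activation-induced membrane protein, had an intensity of 211 in Foxo1-deficient CD4 T cells, against 91.9 in wild-type CD4 T cells. In CD8 T cells it had 312 in the Foxo1-deficient array and 174 in the wild-type array. Both deficient arrays were above both wild-type arrays, and within each genotype CD8 was above CD4. The genotype difference was 2.29-fold in CD4 (log2 1.20) and 1.80-fold in CD8 (log2 0.84). At least as far higher were 0.827% of all probe sets in CD4 and 2.35% in CD8. With a mean within 1.5-fold of that of Cd83, 3.09% of 4981 probe sets were at least 2-fold higher in CD4. The share of them at the 2.29-fold of Cd83 or above was not counted. The fold in CD8 was 0.783 times the fold in CD4.

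Cd24a, the heat-stable antigen, was read by 3 probe sets. The brightest, 1448182_a_at, had an intensity of 296 in Foxo1-deficient CD4 T cells, against 152 in wild-type CD4 T cells. In CD8 T cells it had 162 in the Foxo1-deficient array and 126 in the wild-type array. Foxo1-deficient CD4 was the high array, and the others lay close together. The genotype difference was 1.94-fold in CD4 (log2 0.96) and 1.28-fold in CD8 (log2 0.36). At least as far higher were 1.75% of all probe sets in CD4 and 14.8% in CD8.

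The other Cd24a probe sets were partly below the floor. For 1437502_x_at, whose name marks probes that can also match other transcripts, the intensity was 145 in the Foxo1-deficient and 102 in the wild-type CD4 array, a 1.41-fold difference. In CD8 it was 93.8 in the Foxo1-deficient array and 24.9, below the floor, in the wild-type array, so it was at least 1.25-fold higher. For 1416034_at only the Foxo1-deficient CD4 array, at 86.2, was above the floor, and the wild-type CD4 array read 14.4, which makes it at least 1.15-fold higher. In CD8 both of its arrays were below the floor, with 69.6 in Foxo1-deficient and 32.4 in wild-type. All 3 probe sets were above wild-type wherever they were measured, but they do not give a common size, and in CD8 that of Cd24a rests on 1 probe set measured in both arrays.

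The authors' deposited tables hold a different summary of the same comparisons and give larger differences for most of these probe sets. In the authors' deposited table for CD8, Cd38 was 5.22-fold, Ly6a 4.83-fold, Cd83 2.24-fold and Cd24a 2.23-fold higher. In the authors' deposited table for CD4, Cd83 was 2.72-fold higher, and the 3 Cd24a probe sets were 2.59-fold, 2.06-fold and 2.05-fold higher. There the Cd24a probe set 1416034_at had intensities of 78.6 in deficient and 38.2 in wild-type CD4 T cells. Cd38 was the only gene of the 4 for which the brightest probe set had a smaller fold in the authors' deposited table than in the value table, where it was 5.88. Cd24a in CD8 differed most between the tables at a probe set measured in both arrays, by 0.80 log2 units. By the authors' deposited table for CD8, Cd38 and Ly6a ranked 33 and 36 of 262 probe sets listed as higher, and Cd83 and Cd24a ranked 177 and 184.

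**Figure D2:**
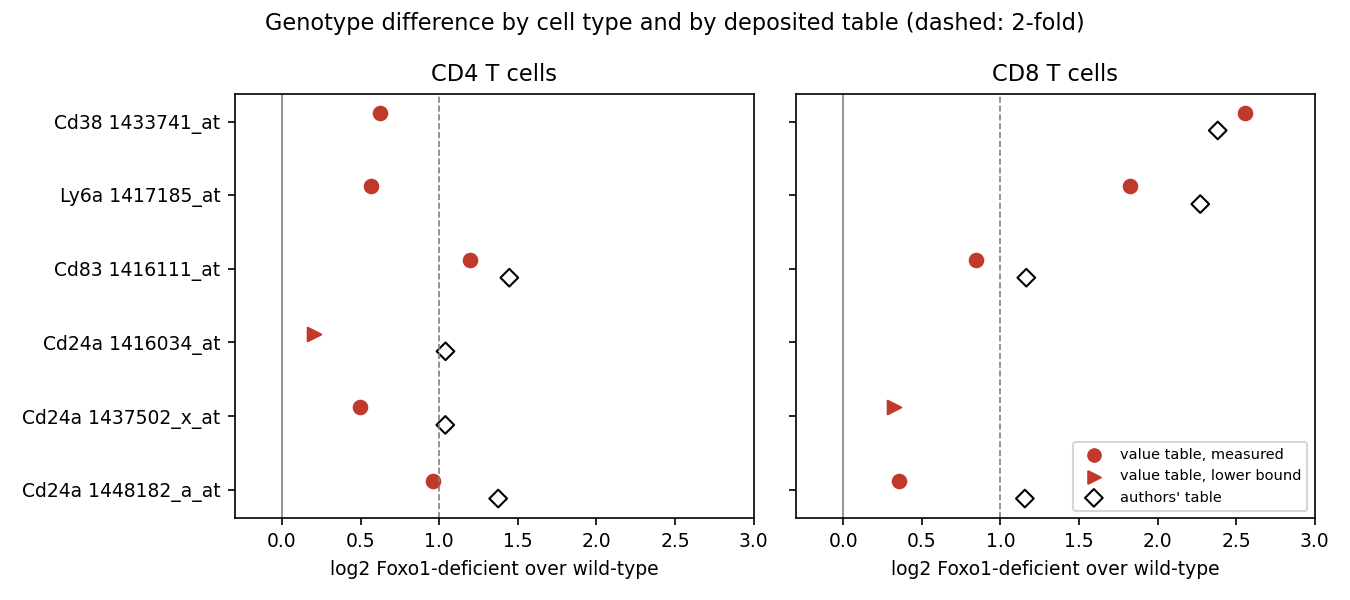
The log2 fold of Foxo1-deficient over wild-type cells for each member probe set in CD4 (left) and CD8 (right) T cells, from the value table (red; circles measured, triangles lower bounds) and from the authors' table (open diamonds), with 2-fold as a dashed line. In CD8 the values of Cd38 (2.56 and 2.38) and Ly6a (1.82 and 2.27) are past 2-fold in both tables. Those of Cd83 and the brightest Cd24a probe set are past it in the authors' table alone. The Cd24a probe set 1437502_x_at is a lower bound in CD8, so whether it passes 2-fold is not known.

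The cell type comparison reads the same arrays as the genotype comparison that listed these probe sets. A gene listed for a high Foxo1-deficient or a low wild-type CD8 value carries that value into it, so it is not free of the selection. Between the Foxo1-deficient arrays, Cd38 was 5.27-fold higher in CD8 than in CD4, and between the wild-type arrays it was 1.38-fold higher. Ly6a was 1.04-fold lower in CD8 than in CD4 between the Foxo1-deficient arrays (log2 -0.05), a value that turned above 0 with the arrays centred on their medians. Between the wild-type arrays Ly6a was 2.47-fold lower in CD8 (log2 -1.30), with 0.977% of 24371 probe sets at least as far lower. For Cd83 the CD8 array was 1.48-fold above the CD4 array in Foxo1-deficient cells and 1.89-fold above it in wild-type cells. For Cd24a it was 1.83-fold below it in Foxo1-deficient cells and 1.21-fold below it in wild-type cells. Of the 4 genes, 1 (Cd38) was at least 2-fold higher in CD8 among Foxo1-deficient arrays, against 1.92% of all probe sets, and none was at least 2-fold lower, against 2.94%. Among wild-type arrays 1 (Ly6a) was at least 2-fold lower, against 2.31%, and none was at least 2-fold higher, against 2.2%. Among all named genes compared, 18.2% were at least 2-fold higher in CD8 in Foxo1-deficient arrays and 14.4% at least 2-fold lower in wild-type arrays, so these counts say nothing particular of the 4 genes.

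**Figure D3:**
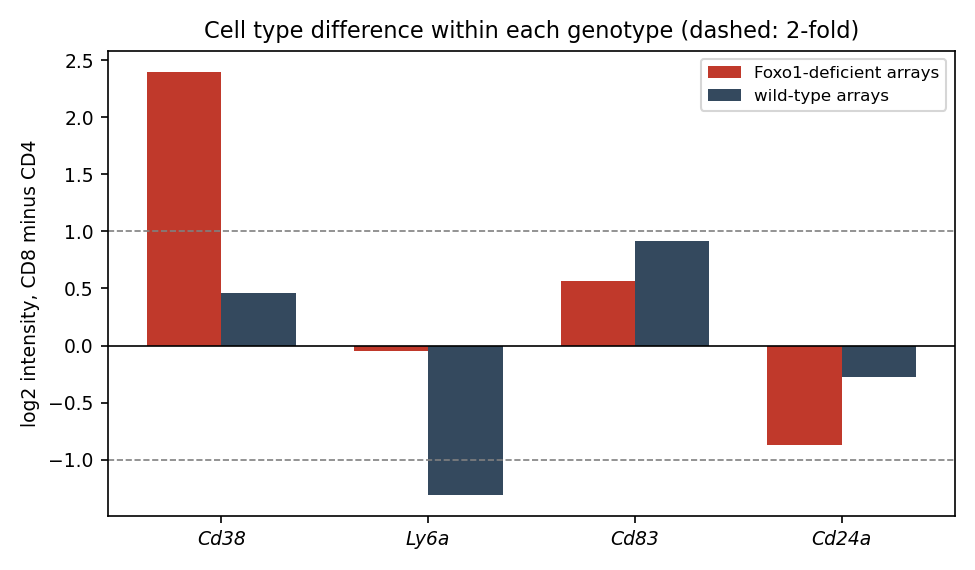
The log2 intensity in CD8 minus that in CD4 T cells for the brightest probe set of each gene, between the Foxo1-deficient arrays (red) and between the wild-type arrays (dark); each bar is 1 pair of arrays with no error. Cd38 differs by 2.40 in Foxo1-deficient and 0.46 in wild-type cells, and Ly6a by -0.05 and -1.30.

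A limma fit over 25375 probe sets with additive terms for cell type and genotype tested the cell type difference shared by both genotypes. Cd83 was higher in CD8 by a log2 difference of 0.74 ± 0.18 (SE, 4 arrays, adjusted p = 0.32 in limma), and Cd38 by 1.43 ± 0.58 (adjusted p = 0.402). Ly6a differed by -0.68 ± 0.39 (adjusted p = 0.494) and the brightest Cd24a probe set by -0.57 ± 0.23 (adjusted p = 0.401). None of the 4 passed, and neither did any other probe set in limma (0 of 25375, 0%), although 3623 (14.3%) had an unadjusted p under 0.05. Under a prior variance that follows mean intensity, fitted robustly, limma called 578 probe sets higher in CD8 and 683 lower, and none of the 4 genes was among them. The fit has 1 residual degree of freedom, and its error includes any difference of the cell type effect between genotypes, which was 1.93 log2 units for Cd38 and 1.25 for Ly6a.

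FOXO factors are known to bind DNA at letters such as TGTTTAC. Cd38 had the largest genotype difference of the 4 genes in CD8 (in CD4 those of Cd83 and Cd24a were larger). No promoter sequence of Ly6a, Cd83 or Cd24a was available here, so the promoter shown is that of Cd38 alone. It is RefSeq's sequence from 250 bases before to 50 bases after the transcription start, GRCm38.p6, chr5:43868559-43868858, plus strand.
Cd38: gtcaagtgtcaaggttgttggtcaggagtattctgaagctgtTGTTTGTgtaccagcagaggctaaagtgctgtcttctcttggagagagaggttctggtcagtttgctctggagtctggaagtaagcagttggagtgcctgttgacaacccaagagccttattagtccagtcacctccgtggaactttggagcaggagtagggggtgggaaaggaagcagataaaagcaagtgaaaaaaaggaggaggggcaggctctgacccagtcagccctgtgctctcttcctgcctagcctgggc
Capitals mark TGTTTGT, a variant of these letters, which begins 208 bases before the start. On either strand TGTTTAC (reverse complement GTAAACA) is not in this window, and 3.65% of 32851 promoters of the same length hold it. TGTTTGT (reverse complement ACAAACA), searched after the sequence had been seen, is in 6.61% of them. The 2 motifs share their first letters and cannot match at the same place. The match is a description of letters and says nothing of binding.

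Genes of the interferon response were looked at because interferons raise Ly6a. Of 36 on the list, 13 carry a symbol, all of them listed by the authors for a change. All 13 were above wild-type in both cell types, 5 of them at least 2-fold in CD4 and 8 in CD8, where 27.5% and 28.5% of all named genes compared were at least 2-fold higher. Their median log2 differences were 0.92 and 1.17. Iigp1, an interferon-inducible GTPase, had an intensity of 8889 in Foxo1-deficient and 1458 in wild-type CD8 T cells, and of 8311 and 2485 in the CD4 arrays of the same genotypes. Irf8, an interferon regulatory factor, had log2 differences of 2.25 in CD4 and 2.66 in CD8. Beside these, Ly6a had 0.57 in CD4 and 1.82 in CD8.

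Of 32 T cell activation genes, 12 carry a symbol, again because the authors listed them. At a 2-fold threshold, at least 4 of them were higher in CD4 and 1 was lower, while 5 were higher in CD8 and 3 lower. The median log2 difference was at least 0.32 in CD4, where 3 of the 12 were lower bounds, and 0.89 in CD8. Among all named genes compared, 27.5% were at least 2-fold higher and 21.8% lower in CD4, and 28.5% and 31.4% in CD8. Cd160, a receptor of cytotoxic lymphocytes, had an intensity of 2862 in Foxo1-deficient and 591 in wild-type CD8 T cells. Cxcr3, a chemokine receptor of effector T cells, had 3823 in Foxo1-deficient and 1395 in wild-type CD8 T cells, and 319 and 141 in the CD4 arrays of the same genotypes. Cd44, an adhesion receptor of activated and memory T cells, had 324 in Foxo1-deficient and 161 in wild-type CD8 T cells, against 785 and 1008 in CD4. The genes at least 2-fold lower in CD8 were Cd28 and Il7r, receptors that naive T cells carry, and Icos, a costimulatory receptor raised on activation. Cd28 had log2 differences of -0.59 in CD4 and -2.65 in CD8, Il7r of -1.93 and -2.52, and Icos of -0.32 and -1.30. None of the 11 surface enzymes of NAD and purine metabolism beside Cd38 carries a symbol, Bst1 (a relative and genomic neighbour of Cd38) included.

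**Figure D4:**
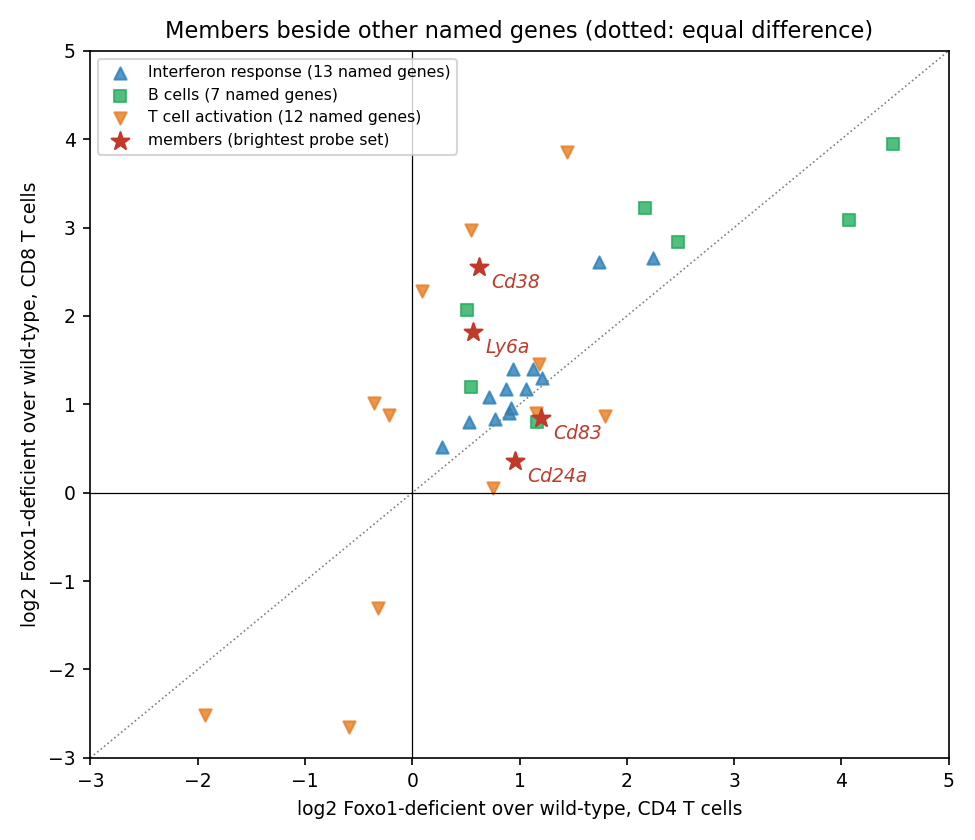
The log2 fold of Foxo1-deficient over wild-type cells in CD4 (x axis) and CD8 (y axis) T cells of the 4 genes (stars, brightest probe set) and of named genes of the interferon response, B cell and T cell activation lists, with values below the floor set to it; the dotted line marks equal differences. Cd38 and Ly6a, both listed for CD8 alone, lie above the line, at 0.62 and 2.56 and at 0.57 and 1.82. Cd83 and Cd24a lie below it.

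B cell markers moved with genotype in the same direction as the 4 genes. Of 30 on the list, 7 carry a symbol, and their summed intensity, values below the floor included, was 7743 in Foxo1-deficient and 1898 in wild-type CD4 T cells (4.08-fold), and 12830 in Foxo1-deficient and 2870 in wild-type CD8 T cells (4.47-fold). All 7 were above wild-type in both cell types. Of them, at least 5 in CD4 and 6 in CD8 were 2-fold higher or more, beside 27.5% and 28.5% of all named genes. They carry symbols because the authors listed them for a change. Igkc, the constant segment of the kappa light chain, had an intensity of 1157 in Foxo1-deficient and 257 in wild-type CD4 T cells, and 1595 in Foxo1-deficient and 171 in wild-type CD8 T cells. The plasma cell gene Jchain, the only one named of 7, had 335 in Foxo1-deficient and 91.0 in wild-type CD4 T cells, and 560 and 85.1 in CD8. Cd72 alone gave 1469 of the sum in wild-type CD8 T cells. H2-Aa, Igk-V1, Igkc and Igh were read by probe sets whose names mark probes that can also match other transcripts. No named marker was at 0. The defining markers Cd79a, Cd79b and Ms4a1 carry no symbol and were not followed. In RNA from a whole preparation, more cells of a type and more RNA per cell cannot be told apart, and the part of B cells in the differences of Cd38, Ly6a, Cd83 and Cd24a was not tested.

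Other cells that carry these proteins could be followed through few markers. Lyz1 and Lyz2, lysozymes of macrophages and 2 of 18 markers of dendritic cells and macrophages, summed to 507 in Foxo1-deficient and 387 in wild-type CD4 T cells, and to 365 and 136 in CD8. Their part in the Cd83 difference was not tested. Lyz1 and Lyz2 were both read by probe sets whose names mark probes that can also match other transcripts. For Cd24a, the thymocyte gene Dntt (1 of 8 markers of immature T cells named) had an intensity of 274 in Foxo1-deficient and 547 in wild-type CD4 T cells, and 87.2 and 240 in CD8. The haemoglobin gene Hba-a1 (1 of 11 red cell markers named) had 68.6, below the floor, in Foxo1-deficient and 152 in wild-type CD4 T cells, and 51.2, below it, and 120 in CD8. The part of these cells in the Cd24a difference was not tested.

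The most similar patterns over the 4 arrays were sought among 467 other named genes at or above the floor in at least 2 arrays. Similarity was the Euclidean distance between mean-centred log2 values, taken without the floor. All of these genes had been listed for a change. Nearest to Cd38 were Cdh1, which encodes E-cadherin (distance 0.76 log2 units), the drug efflux pump gene Abcb1a (0.77) and the aryl hydrocarbon receptor gene Ahr (0.79). Cdh1 was below the floor in both wild-type arrays, at 40.8 in CD4 and 58.4 in CD8. Ahr had an intensity of 749 in Foxo1-deficient and 128 in wild-type CD8 T cells, and 265 and 144 in the CD4 arrays of the same genotypes. Nearest to Ly6a were Mbnl1, an RNA-binding protein gene (0.28), Fgf2 (0.37) and Ifngr2, a chain of the interferon gamma receptor (0.40). Ifngr2 had 413 in Foxo1-deficient and 145 in wild-type CD8 T cells, and 364 and 320 in CD4. Nearest to Cd83 were Cdca5, a gene of sister chromatid cohesion (0.18), Fignl1 (0.19) and Pmepa1 (0.20), and nearest to Cd24a were Plcxd1 (0.22), Skap2 (0.24) and Gtf2ird1 (0.29). Between the 4 genes themselves the distances ran between 1.08 (Ly6a and Cd24a) and 2.55 (Cd38 and Cd24a).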

How the data were processed

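Per the labels' protocols, biotin-labelled cRNA from 0.5 ug of total RNA was hybridised to Affymetrix arrays. The authors deposited a table of linear intensity values, 1 for each array at each probe set. No source used here gives its summary, background correction or scaling. The 2 fold change tables the authors deposited hold, per the file headers, a fold (a ratio of Foxo1-deficient to wild-type) and 2 raw intensities, with header names standing 1 column to the left of the data. Each array stands for 1 sample, and the number of arrays limits the precision.

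The 64 control probe sets were left out of 45101. Symbols came only from the fold change tables (660 probe sets, 507 genes), were updated through RefSeq synonyms where a single gene holds them, and 1 symbol turned into a date was dropped. The members and lists were chosen with earlier results of these data known. Per gene the brightest probe set was used, on the log2 scale, with the floor described above. The pattern distances used no floor. Named were Foxo1, all members, the 3 genes nearest to each by pattern, and examples of the fixed lists. The examples given are not always the largest differences of their list. The limma 3.58.1 fit (R 4.3.3, Benjamini-Hochberg, two-sided) ran without a floor on every probe set that reached it in 1 array or more, and was tested on simulated data. Other steps used Python 3.11.15, numpy 2.4.6, pandas 2.3.3 and matplotlib 3.10.9. Alternatives were other floors, centring, quantile normalization, other probe sets, the authors' tables, other fold thresholds and other limma settings.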

Additional observations from a re-analysis of the deposited data

How the results depend on the processing

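Every genotype difference of the 4 genes stayed above 0 under each alternative that gave a value. A value was taken as moved when it changed by over 0.39 log2 units, the pooled SD between probe sets of the same named gene. By the authors' deposited table the log2 difference of Cd24a was 1.38 in CD4 and 1.16 in CD8. Ly6a had 2.27 there in CD8. In CD4, Cd24a had at least 0.55 by the mean of its probe sets and 0.50 by the second brightest. That mean is a lower bound because 1416034_at, at 14.4 in wild-type CD4, was raised to the floor. With the 75th percentile (471) as the floor, Cd38 was higher in Foxo1-deficient CD8 T cells by at least 0.97, both against wild-type CD8 and against Foxo1-deficient CD4, since the arrays set against it then lie below the floor. With that floor not all 4 genes had a value. The number of genes at least 2-fold apart was then 1 of 2 for genotype in CD8. It was 0 of 1 (Ly6a) for genotype in CD4 and 0 of 2 for cell type in Foxo1-deficient arrays. At 1.5-fold it was 3 for genotype in each cell type, and 2 for cell type in each genotype. At 3-fold it was 0 for genotype in CD4 and for cell type in wild-type arrays. After quantile normalization it was 2 for cell type in wild-type arrays, as Cd83 then just reached 2-fold. With the arrays centred on their medians it was 3 for genotype in CD8, again through Cd83. The cell type difference of Ly6a in Foxo1-deficient arrays lay between -0.09 and 0.08. No paired analysis was possible because each group has 1 array, and for the same reason no replicate could be left out. Limma's cell type effects of the 4 genes kept their direction and did not pass in any of the 17 values from alternative settings. These cover the brightest probe set of each gene and, for Cd24a, also the second brightest. The third Cd24a probe set, 1416034_at, went the other way, by 0.43 in the main fit, with 3 of its 4 arrays below the floor. Cd38 (outside the Foxo1-deficient CD8 array), Cd83 and Cd24a lie near the floor, which limits how well their folds are measured.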

Other observations

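Markers of other T cell types that were not set beside the 4 genes also differed with genotype. Of 8 regulatory T cell markers 3 carry a symbol. Ikzf2, which encodes the transcription factor Helios, had an intensity of 1292 in Foxo1-deficient and 318 in wild-type CD4 T cells, and 3896 in Foxo1-deficient and 1068 in wild-type CD8 T cells. Foxp3, which specifies regulatory T cells, had 152 in Foxo1-deficient CD4 T cells, against 47.7, below the floor, in wild-type CD4 T cells, and was below the floor in both CD8 arrays. Nrp1 was lower without Foxo1, with 59.3, below the floor, in Foxo1-deficient and 347 in wild-type CD4 T cells. Of 9 gamma delta T cell markers 3 carry a symbol, and their summed intensity was 8663 in Foxo1-deficient and 223 in wild-type CD4 T cells, and 7049 and 192 in CD8. 5830411N06Rik had 5888 in Foxo1-deficient and 83.4 in wild-type CD4 T cells, and 5711 and 103 in CD8. Cd163l1, a scavenger receptor gene, had 2746 in Foxo1-deficient and 130 in wild-type CD4 T cells, and 610 in Foxo1-deficient CD8 T cells, against 56.5, below the floor, in wild-type CD8 T cells. Trgv1, a variable segment of the gamma chain, had 728 in Foxo1-deficient CD8 T cells, against 31.9, below the floor, in wild-type CD8 T cells, and was below the floor in both CD4 arrays.

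Of 14 NK cell markers 4 carry a symbol, and their summed intensity was 15119 in Foxo1-deficient and 24048 in wild-type CD8 T cells, and 759 and 1673 in CD4. Klrd1, which encodes the receptor chain CD94, had 2875 in Foxo1-deficient and 12752 in wild-type CD8 T cells, and 95.8 and 1327 in CD4, which accounts for the lower sums. The median log2 difference of the list was 0.65 in CD4 and 0.35 in CD8. Eomes, a T-box factor of NK cells and memory CD8 T cells, was above wild-type by 0.65 in CD4 and 0.69 in CD8. Klrc1 was above it by at least 0.92 in CD8. The granule gene Nkg7 was above it by at least 1.38 in CD4 and had 9920 in Foxo1-deficient and 9924 in wild-type CD8 T cells. No NKT cell or neutrophil marker carries a symbol.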
